A study of Mus musculus with 6 samples.

Results

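Carbonic anhydrases were examined in 4T1-T cells sorted by their uptake of acetylated low-density lipoprotein (acLDL). The genes were chosen by symbol from a list of 10 members of the family (Car2, Car3, Car4, Car5b, Car6, Car8, Car9, Car11, Car12 and Car13), and kept where the authors' comparison of the sorted populations held a row for them. This left 6 genes of the 15973 in that comparison, and 5 of them were among the 12572 genes with enough counts to be tested. The values behind the choice were thus the counts, since every gene of the comparison had at least 1 count summed over the 6 libraries. Car11, the member just inside, had 36 counts in all, and Car2, Car3, Car4 and Car8, just outside, had 0 counts in each library. The differences of Car6 and Car9 between the populations were already known when the family was chosen, so the tests of the members below describe these libraries and are not independent evidence.

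4T1-T cells are 1 clone derived from 4T1, a mouse mammary carcinoma line, and are described as proficient in vasculogenic mimicry, the formation of vessel-like channels by tumor cells. All cells were starved of serum overnight, given fluorescent acLDL at 10 ug/mL for 4 h and then sorted. The paper's methods add 1 h in complete growth medium after uptake, stated for imaging. That this hour also preceded the sort is assumed here. The acLDL-high group holds the top 25% of cells by fluorescence and the acLDL-low group the bottom 25%, so there was no sample without acLDL. Each group has 3 libraries of polyadenylated RNA, numbered 1 to 3, and the library totals lay between 70263372 and 94216786 counts. The series description states that the whole experiment was done on 3 occasions, and the replicate numbers are taken here to stand for them, which the sample titles do not say.

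Carbonic anhydrases convert carbon dioxide and water into bicarbonate and a proton, and the reverse, with a zinc ion held in the active site. They differ mainly in where they work. Car9 and Car12 span the plasma membrane with the enzyme on the outside, where they help tumor cells to export acid. Car6 is secreted and known from saliva, Car13 is cytosolic and Car5b mitochondrial. Car11, like Car8, belongs to the related proteins that have lost the catalytic activity. Car9 is among the best known genes induced by hypoxia-inducible factor (HIF), which binds a short core element in its promoter.

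The sequence before a RefSeq transcription start is shown for 3 members that the results turn on. They are Car9, which among the members tested varied most between occasions, Car6, which differed most between the sorted populations, and Car12, which varied least. Each line gives the 250 bases before a RefSeq start on GRCm38.p6, 5′ to 3′ on the strand of the gene, with capitals marking ACGTG or GCGTG, the cores of hypoxia response elements, read on either strand. The windows are chr4:43506776-43507025 on the plus strand for Car9, chr4:150201136-150201385 on the minus strand for Car6 and chr9:66713436-66713685 on the plus strand for Car12.
Car9: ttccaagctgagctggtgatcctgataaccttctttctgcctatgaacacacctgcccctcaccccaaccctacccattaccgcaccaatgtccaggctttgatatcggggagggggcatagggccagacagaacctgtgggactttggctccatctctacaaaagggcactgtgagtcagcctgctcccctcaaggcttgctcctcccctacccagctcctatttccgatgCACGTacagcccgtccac
Car6: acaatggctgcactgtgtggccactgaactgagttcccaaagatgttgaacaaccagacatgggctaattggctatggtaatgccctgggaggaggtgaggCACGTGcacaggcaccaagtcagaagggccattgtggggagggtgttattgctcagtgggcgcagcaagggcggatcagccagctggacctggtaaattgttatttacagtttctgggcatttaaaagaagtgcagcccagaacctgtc
Car12: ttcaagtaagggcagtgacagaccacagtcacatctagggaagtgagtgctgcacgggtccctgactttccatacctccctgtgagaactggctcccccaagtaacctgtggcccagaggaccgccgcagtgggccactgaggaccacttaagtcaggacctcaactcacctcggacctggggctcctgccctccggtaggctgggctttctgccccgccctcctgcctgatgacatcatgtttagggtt

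In the window of Car9, ACGTG occurred once, on the opposite strand, with its first printed base 18 bases before the RefSeq start. The match in Car6 was a palindrome, CACGTG, which holds ACGTG on both strands and begins 149 bases before the RefSeq start. The gene positions used here, from GENCODE M21, begin further upstream, at 43506966 for Car9 and 150201332 for Car6. Both matches, and the later bases of both windows, thus lie inside those genes, after the GENCODE start. The window of Car12 held neither core. Of the 32851 RefSeq windows of this length, 16.6% held ACGTG, 28.2% held GCGTG and 38.6% held either, so such letters are common and a match is a description of the sequence only. Windows were found for 6 of the 10 listed genes. Car5b had 5 matches to GCGTG, Car11 had 1 in the earlier of its 2 windows, and Car4 had none.

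Per length of transcript, Car9 was the leading carbonic anhydrase of these cells. In acLDL-low replicates 1, 2 and 3 it was at 521, 164 and 644 TPM (counts per summed exon length of the gene, scaled to the library), and in acLDL-high replicates at 484, 119 and 573 TPM. It made up between 55.9% and 87.4% of the TPM of all 16 genes of the family. The next was Car13, between 30.5 and 51.6 TPM over the 6 libraries. Car12 lay between 22.1 and 28.1 TPM and Car5b between 17.3 and 28.6 TPM, so these neighbours in the order overlapped. Car6 ranged from 5.04 to 27.0 TPM and Car11 did not exceed 0.486 TPM. The order below Car9 depended on the length used. With the longest transcript in place of all exons, Car12 ranged from 35.4 to 44.5 TPM, Car5b from 24.5 to 41.1 TPM and Car13 from 23.7 to 40.3 TPM, and these 3 genes overlapped.

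**Figure D1:**
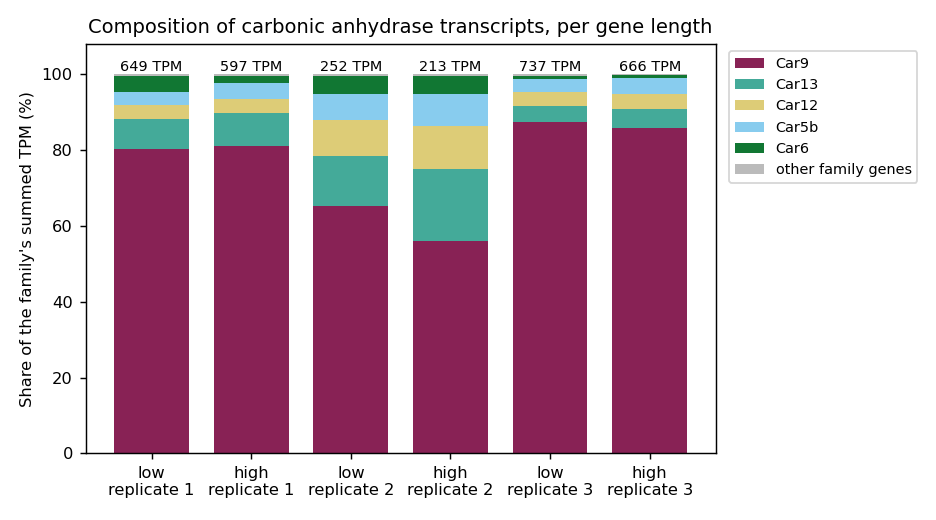
Share of the summed TPM of the 16 carbonic anhydrase genes taken by each gene (y axis, percent) in the 6 libraries (bars, 1 library each), with the family's summed TPM above each bar. Car9 takes between 55.9% and 87.4%, with its lowest shares in replicate 2, where the family sum is 252 TPM in acLDL-low and 213 TPM in acLDL-high cells.

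Car9 (ENSMUSG00000028463, chromosome 4 of GRCm38, 43506966 to 43513729, plus strand) was at 341, 119.8 and 423 CPM (counts scaled to the library size, by the TMM method) in acLDL-low replicates 1, 2 and 3, and at 329, 86.1 and 383 CPM in acLDL-high replicates. Car9 was lower in the acLDL-high library of each pair, while the ranges of the populations overlapped, since both libraries of replicate 2 lay far below the other 4. Over the 3 libraries, acLDL-high cells averaged 266 ± 158 CPM, and acLDL-low cells 295 ± 157 CPM (SD, n = 3). Fitted within pairs, the log2 fold change came to -0.22 (standard error, SE, 0.07) with an adjusted p of 0.0820 (quasi-likelihood test of edgeR, Benjamini-Hochberg over the 12572 genes), which did not pass the threshold of 0.05. The differences were -0.05, -0.48 and -0.14 in pairs 1, 2 and 3 on the log2 scale, the largest in pair 2. Without replicate 2 the log2 fold change was -0.10 (adjusted p = 0.328), and without replicate 1 it was -0.30 (adjusted p = 0.00203). With DESeq2 and the same block Car9 passed, with an adjusted p of 0.0409. Of the exon bases of Car9, 214 (9.29%) overlap Gm12454, an antisense gene with 1262 counts in all against 133095 for Car9, and the strand setting of the counting is not given in the sources used here.

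Car12 (ENSMUSG00000032373, chromosome 9, 66713686 to 66766845, plus strand), the other membrane enzyme that faces outwards, was nearly level. It was at 52.0, 56.7 and 60.9 CPM in acLDL-low replicates 1, 2 and 3 and at 49.7, 57.2 and 55.8 CPM in acLDL-high replicates. The populations overlapped and the pairs differed in direction, with -0.07, 0.01 and -0.13 on the log2 scale. Its log2 fold change was -0.06 (SE 0.05, edgeR adjusted p = 0.515).

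Car6 (ENSMUSG00000028972, chromosome 4, 150187015 to 150201332, minus strand) was at 13.9, 6.99 and 3.86 CPM in acLDL-low replicates 1, 2 and 3, and at 6.61, 5.83 and 2.66 CPM in acLDL-high replicates. The secreted enzyme was lower in the acLDL-high library of each pair, by very unequal amounts, with log2 differences of -1.07, -0.26 and -0.53. The ranges of the populations overlapped, with both libraries of replicate 3 below the other 4. In acLDL-high cells the mean was 5.03 ± 2.09 CPM, beside 8.25 ± 5.14 CPM for acLDL-low (SD, n = 3), and the log2 fold change was -0.65 (SE 0.13, edgeR adjusted p = 0.0145), which is 0.638 times the level. Car6 was the single member that passed the threshold, 1 of the 5 tested. Over all 12572 genes, 4.75% passed in either direction and 1.32% passed as lower in acLDL-high cells. The call was lost without replicate 1 or 3, where the adjusted p was 0.107 (log2 fold change -0.38) and 0.125 (-0.69). Without the replicate block, which leaves the differences between occasions in the error, the log2 fold change was -0.72 (adjusted p = 1).

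Car13 and Car5b had fold changes above 0, and neither passed the test. Car13 (ENSMUSG00000027555, chromosome 3, 14641727 to 14663002, plus strand), which is cytosolic, was at 32.7, 24.3 and 20.0 CPM in acLDL-low replicates 1, 2 and 3 and at 35.0, 29.4 and 22.2 CPM in acLDL-high replicates. It was the higher one in acLDL-high cells in 3 of 3 pairs, with a log2 fold change of 0.17 (SE 0.05, edgeR adjusted p = 0.0988). Car5b (ENSMUSG00000031373, chromosome X, 163976822 to 164027997, minus strand), the mitochondrial form, was at 41.3, 34.7 and 44.1 CPM in acLDL-low replicates and at 45.8, 35.6 and 52.8 CPM in acLDL-high replicates. It was also higher in 3 of 3 pairs, with a log2 fold change of 0.15 (SE 0.05, edgeR adjusted p = 0.130). Without replicate 2, where the pair differed by 0.04, the log2 fold change of Car5b was 0.20 (adjusted p = 0.0239), and without replicate 3 it was 0.096 (adjusted p = 0.547). The groups overlapped for both genes. Of the 5 members tested, 4 kept a direction through the 3 pairs, 2 higher and 2 lower, and over all genes tested 20.9% were higher and 19.4% lower in all 3 pairs.

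**Figure D2:**
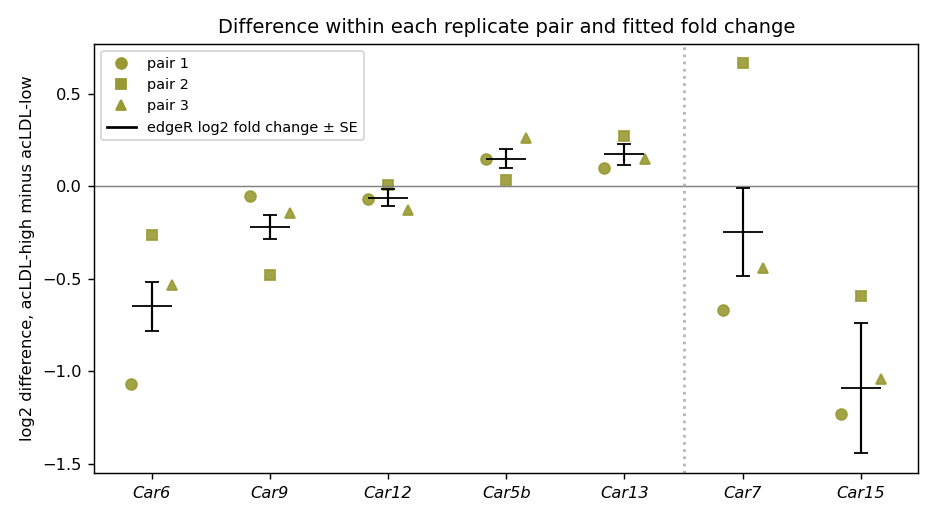
Log2 difference in CPM between the acLDL-high and the acLDL-low library of each replicate pair (points), with the fitted edgeR log2 fold change ± its standard error (bars), for the 5 members tested and, right of the dotted line, Car7 and Car15. Car6 and Car9 lie below 0 and Car5b and Car13 above 0 in each pair, and Car6 alone passed the threshold, with -0.65.

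Car11 was barely detected. It had 6, 0 and 2 counts in acLDL-low replicates 1, 2 and 3 and 22, 0 and 6 counts in acLDL-high replicates, so it fell under the filter on low counts and was not tested. Without that filter the adjusted p was 0.569. Car2, the fast cytosolic enzyme, Car3, known from muscle and fat, Car4, anchored at the cell surface by a lipid, and Car8 were at 0 counts in each library. If each count is 1 independent fragment, a count of 0 allows up to 3 counts. That was between 0.0323 and 0.0429 CPM per library and covers counting error only. All counts of Car11 were even. If both reads of a pair were counted, the limit is higher.

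**Figure D3:**
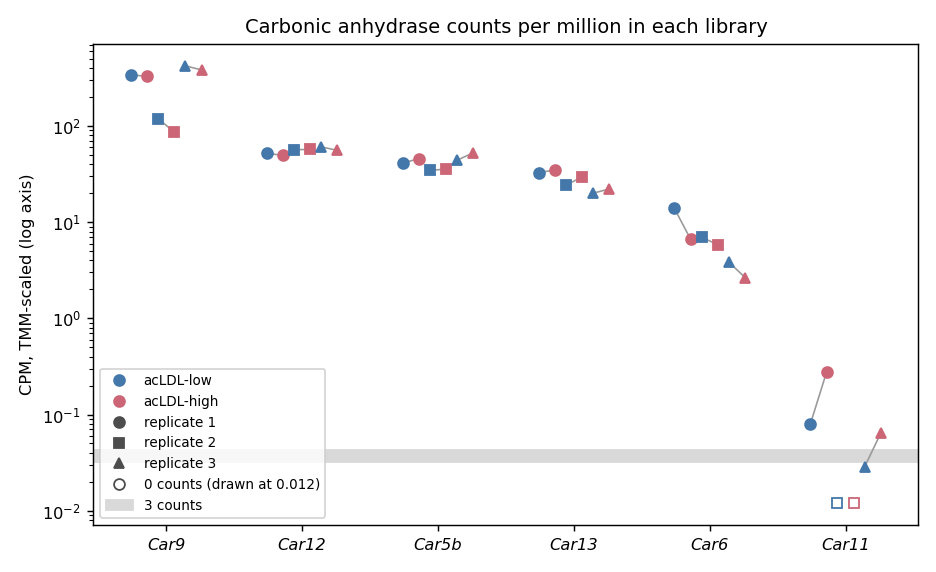
CPM (y axis, log scale) of the 6 members with counts in each of the 6 libraries, with lines joining the populations of a pair, symbols for the replicate and a grey band for the level of 3 counts. Car9 in replicate 2, at 119.8 and 86.1 CPM, stands apart from the other 4 libraries at 329 to 423 CPM, whereas Car12 stays between 49.7 and 60.9 CPM.

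Family genes outside the list were also looked up. Car7, cytosolic, averaged 1.37 ± 0.747 CPM among acLDL-low libraries and 1.10 ± 0.182 CPM among acLDL-high ones (SD, n = 3), with pairs of opposite direction and an edgeR adjusted p of 0.623. Car15 was at 0.595, 0.223 and 0.514 CPM in acLDL-low and at 0.239, 0.139 and 0.237 CPM in acLDL-high replicates. Its log2 fold change was -1.09 (SE 0.35, edgeR adjusted p = 0.108). Of the exon bases of Car15, 65.7% overlap Gm20518 on the same strand, so its counts are uncertain. Car5a and Car14 had 3 and 4 counts in all, and Car1 and Car10 had 0.

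For each of the 5 members tested, the span between occasions was larger than the log2 fold change between populations. The 2 are unlike measures, a highest minus a lowest mean and a paired difference. The median span of all genes tested was 0.45 on the log2 scale, so a wide span is no trait of the family. The mean log2 CPM of Car9 spanned 1.99 over the 3 occasions, 9.11 times the size of its log2 fold change, and 3.92% of genes tested had a larger span. For Car6 the span was 1.58, with 7.37% of genes above it. Car13 spanned 0.68, Car5b 0.46 and Car12 0.20, and 84.1% of genes tested had a larger span than Car12. The members were lowest in different replicates. Both libraries of replicate 2 lay below the other 4 for Car9 and Car5b, both of replicate 3 for Car6 and Car13, and both of replicate 1 for Car12. Such separation was common, since 17.6%, 28.7% and 18.9% of all genes tested were lowest in both libraries of replicates 1, 2 and 3. With 1 acLDL-low and 1 acLDL-high library each, the occasions have no replicates of their own and their differences were not tested.

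Genes known to be induced by hypoxia were set beside Car9. Of 32 such genes in a list written from general knowledge, 31 were tested, and 23 of them (74.2%) were lowest in both libraries of replicate 2, against 28.7% of all genes. The drop of Car9 in replicate 2 from the mean of replicates 1 and 3, of -1.85 on the log2 scale, was larger than that of any of the 31. Aldoc, a glycolytic aldolase, followed with -1.63, Ankrd37 with -1.50 and Vldlr, a lipoprotein receptor, with -1.29. The median of the list was -0.55 and that of all genes -0.01. Car12, which is also known as a hypoxia-induced gene in tumors, had 0.07. Replicate 2 was set against the others after the levels of Car9 had been seen.

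**Figure D4:**
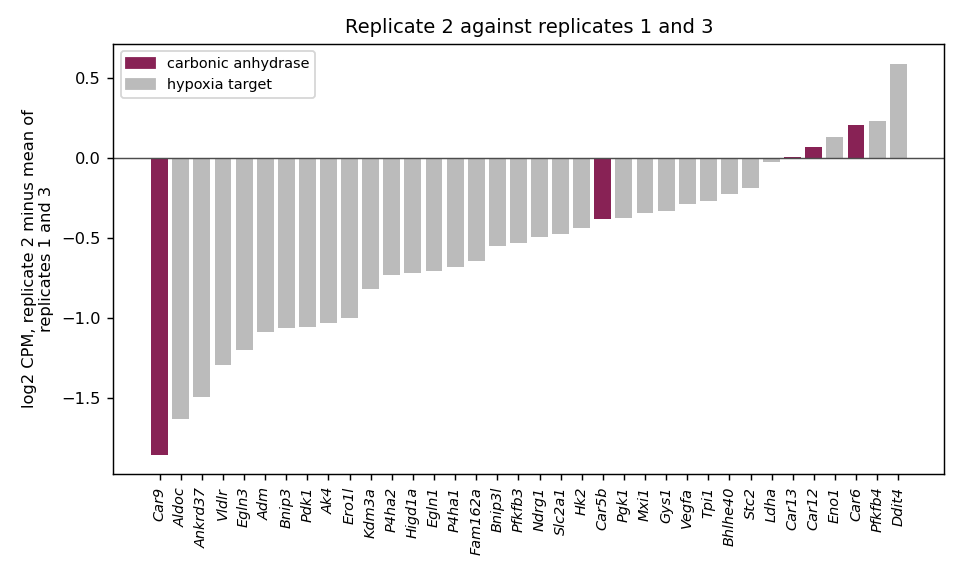
Mean log2 CPM in replicate 2 minus the mean of replicates 1 and 3 (y axis) for the 5 members tested (dark bars) and 31 hypoxia-induced genes (grey bars), in order. Car9, at -1.85, is the lowest bar, and Car12, at 0.07, lies near 0.

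In the comparison of the populations, 5 of the 31 hypoxia genes passed the threshold (16.1%), 3 lower and 2 higher in acLDL-high cells, where 4.75% of all genes tested passed. Ddit4, an inhibitor of mTOR signalling, fell by 0.39 on the log2 scale (adjusted p = 0.00164 from edgeR), the secreted hormone Stc2 fell by 0.29 (adjusted p = 0.00298) and Ndrg1 fell by 0.24 (adjusted p = 0.0218). Bhlhe40, a transcription factor, rose by 0.29 (adjusted p = 0.0279), and Vegfa, the vascular growth factor, rose by 0.15 (adjusted p = 0.0481). The median log2 fold change of the list was -0.09, with 27 of 31 genes below 0. Over all genes tested the median was 0.0017, with 6216 of 12572 below 0. Of the 31, 11 kept a direction through the 3 pairs, beside 5075 of the 12572 genes tested (20.9% higher and 19.4% lower), so the list was near all genes in this. Several of the 31 were below 0 in pair 2 only. Vegfa did not pass when any replicate was left out (adjusted p = 0.130, 0.0548 and 0.192 without replicates 1, 2 and 3). Bhlhe40 was at 0.15 (adjusted p = 0.0570) without replicate 2 and at 0.36 (adjusted p = 0.101) without replicate 3. Without replicate 3, Ddit4 (adjusted p = 0.0611) and Stc2 (adjusted p = 0.0674) also missed the threshold, and Ndrg1 passed (adjusted p = 0.0458). Of 10 genes for the HIF factors and their regulators, some of them also in the hypoxia list, 7 were tested and 0 passed with edgeR or with DESeq2. Hif1a and Egln2, 2 of the 7, had an unadjusted p under 0.05 in edgeR, as did 2435 of all 12572 genes tested. Hif1a averaged 389 ± 51.6 CPM in acLDL-high cells against 358 ± 29.9 CPM (SD, n = 3), with an adjusted p of 0.183 from edgeR, Vhl, part of the ligase that marks HIF for destruction, had a log2 fold change of -0.06 (adjusted p = 0.724), and Epas1 had 2 counts in all.

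Carbonic anhydrases act together with transporters of bicarbonate, protons and lactate. Of 39 such genes in a second list, 25 were tested and 2 passed (8%, beside 4.75% of all genes tested), both lower in acLDL-high cells. Slc4a8, a sodium-driven exchanger of chloride and bicarbonate, was at 28.3, 75.7 and 58.7 CPM in acLDL-low replicates 1, 2 and 3 and at 22.6, 68.9 and 49.1 CPM in acLDL-high replicates, a log2 fold change of -0.23 (SE 0.05, edgeR adjusted p = 0.0174). It was lower within each pair, although the groups overlapped. Slc9a5, a sodium-proton exchanger, was at 77.2, 119.5 and 86.4 CPM against 70.7, 105.4 and 73.1 CPM, a log2 fold change of -0.18 (SE 0.04, edgeR adjusted p = 0.0294). Without replicate 3 neither passed (adjusted p = 0.182 for Slc4a8 and 0.233 for Slc9a5). The anion exchanger Slc4a2 had a log2 fold change of -0.06 (adjusted p = 0.496), the bicarbonate importer Slc4a7 of 0.09 (adjusted p = 0.301) and the lactate transporter Slc16a1 of 0.02 (adjusted p = 0.841). Slc16a3, the lactate exporter that hypoxia is known to induce, was at 0 counts in each library. The median of the list was 0.02.

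Enzymes that use bicarbonate as a substrate made up a further list. Of 9 genes, 8 were tested and 1 passed (12.5%, beside 4.75% of all genes tested). Pcca, a subunit of the mitochondrial propionyl-CoA carboxylase, was at 23.9, 22.5 and 23.1 CPM in acLDL-low replicates and at 26.9, 26.7 and 26.5 CPM in acLDL-high replicates. The log2 fold change of Pcca was 0.20 (SE 0.05, edgeR adjusted p = 0.0450). Pcca did not pass when any replicate pair was left out (adjusted p = 0.0575, 0.129 and 0.220 without replicates 1, 2 and 3), nor with DESeq2 and the block (adjusted p = 0.0840). Pccb, the other subunit, had a log2 fold change of 0.11 (adjusted p = 0.303).

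Some other genes followed the members through the 6 libraries. Likeness was measured as the root mean square difference of the log2 CPM after each gene was centred on its own mean. Ankrd24 (0.121), Mrc2 (0.125) and Fbxl20 (0.127) were nearest to Car9, where the median gene stood at 0.911. Smad4 (0.00996), Dnajb6 (0.0269) and Gapvd1 (0.0273) were nearest to Car12, and Ccdc71l (0.0179), Gpcpd1 (0.0345) and Adam17 (0.0396) to Car5b. The median gene stood nearer to these members, at 0.231 for Car12 and 0.312 for Car5b, so their values are not comparable with those of Car9. For Car6, with the median gene at 0.773, the nearest were Smad9 (0.196), Gm16253 (0.200) and Zkscan14 (0.230), none of them above 1.72 CPM on average. Ankrd24 was at 16.6, 4.95 and 16.4 CPM in acLDL-low and 13.5, 3.59 and 14.2 CPM in acLDL-high replicates. Its low level in replicate 2 follows from its choice by likeness to Car9 in these libraries. It passed the test between the populations (log2 fold change -0.30, adjusted p = 0.0433 from edgeR), which for the same reason is no separate evidence.

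The labelled mammary carcinoma cells carried epithelial markers. Of 11 markers of mammary epithelium, 10 were above 1 CPM on average, and Krt5 was at 0 counts. Their sum was 3470 to 5830 CPM in acLDL-low and 3930 to 6290 CPM in acLDL-high cells. Of the 10 tested, 3 passed as higher in acLDL-high cells, Cldn3, Cldn4 and Cldn7 (adjusted p = 0.0161, 0.000832 and 0.0102 from edgeR). Over all 12572 genes tested, 431 passed as higher. Erythroid markers, of interest because red cells are rich in carbonic anhydrases, summed to at most 0.612 CPM, with 6 of 10 at 0 counts, among them Alas2, Hba-a1 and Hbb-bs. Of 10 macrophage markers 2 were above 1 CPM, Cd68 and Mrc1, their sum was 10.1 to 12.3 CPM in acLDL-low and 9.72 to 10.4 CPM in acLDL-high cells, and Adgre1, C1qa and C1qb were at 0. The 8 endothelial markers summed to 1.56 to 2.64 CPM in acLDL-low and 1.51 to 2.32 CPM in acLDL-high cells, with Emcn and Cldn5 at 0. The 7 fibroblast markers summed to 29.0 to 41.1 and 29.8 to 43.3 CPM, of which Pdgfra made up most while Lum and Col3a1 were at 0, and the 8 adipocyte and muscle markers to at most 0.285 CPM. The part of the epithelial genes in the differences of Car6 was not tested. In bulk libraries fewer cells that express a gene and less RNA per cell cannot be told apart.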

How the data were processed

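RNA-Seq of sorted 4T1-T cells gave 6 libraries, 3 acLDL-low and 3 acLDL-high, grouped by the sample titles. Per the submitters' processing notes and the paper's methods, the authors mapped the read pairs to the mouse genome mm10 using STAR (2.5.2a). They quantified genes with featureCounts (1.4.3-p1) and deposited raw counts per gene. The annotation release and strand setting are not given in the sources used here. The authors also deposited their own DESeq2 (1.20.0) comparison, with fold changes and p-values. None of its values was used, only its gene IDs and symbols.

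Counts were tested with edgeR (4.0.16, R 4.3.3). The 15973 protein-coding genes of the authors' comparison were filtered with filterByExpr, scaled by TMM, and compared by the quasi-likelihood test in a model that also held the replicate number (the replicate block), since the study's methods included the replicate. The series description gives 3 occasions, the titles only replicate numbers, and the numbers were taken as the occasions. Libraries of the same number deviated from their group mean together (correlation across genes 0.795, 0.846 and 0.799 for numbers 1, 2 and 3). Between different numbers it was at most -0.0882. Centring on a mean of 3 libraries itself pushes those values below 0, so they add no separate support. No library repeated another (chi-square per degree of freedom of 21.3 or more). Benjamini-Hochberg adjustment covered the 12572 genes that passed, and calls needed an adjusted p under 0.05. With the block, p-values set the mean difference between the populations against its variation from pair to pair, over 3 pairs of 1 clone. The estimate of that variation borrows from the other genes. The spread of levels between the repeats is taken out. Standard errors were derived from the log2 fold change and its F statistic. Within-pair differences use log2 CPM with a prior count of 2. TPM used exon lengths from GENCODE M21 (GRCm38), found for 53274 of 53379 gene IDs.

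Genes named are the members, the other family genes, up to 6 genes per list with the smallest adjusted p, a few factors and transporters fixed by name (of which 1 is not reported here), markers, and the 3 genes nearest in pattern to the 3 most abundant members and to any member that passed. Pccb, Aldoc, Ankrd37, Vldlr, Egln2 and Slc4a4 were named after their values were seen. The members and lists were chosen with earlier results of these data known. The test was tested on simulated data. Alternatives were no replicate block, DESeq2's size factors, DESeq2 (1.42.0) with the block, no low-count filter, a minimum of 10 counts per library, the whole count table, leaving out each pair, a threshold of 0.01, other gene lengths and unscaled CPM.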

Additional observations from a re-analysis of the deposited data

How the results depend on the processing

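The fold changes of the members kept their sign under every alternative run for the 5 members tested. Outside them, without replicate 1, Car7, Slc16a1 and Vhl turned direction, and none of these was called. Leaving out a replicate gave log2 fold changes of -0.57 to 0.032 for Car7, -0.021 to 0.062 for Slc16a1 and -0.13 to 0.0045 for Vhl. The replicate block decided the calls. Without the replicate block 0 of 12329 genes passed with edgeR, 45 had an unadjusted p under 0.05, and 0 carbonic anhydrases, acid-base transport genes, bicarbonate-using enzymes or hypoxia genes passed. Against 597 genes in all, 932 passed without the low-count filter, with 2 carbonic anhydrases (Car6 and Car9, the latter at adjusted p = 0.0136) and 4 acid-base genes, and 199 passed at a threshold of 0.01, with 0 carbonic anhydrases, 0 acid-base genes, 0 bicarbonate-using enzymes and 2 hypoxia genes. DESeq2 with the block called 2 carbonic anhydrases (Car9 at adjusted p = 0.0409) and 0 bicarbonate-using enzymes. Leaving out a replicate gave 126 to 869 genes, 0 to 2 carbonic anhydrases, 0 to 3 acid-base genes, 0 bicarbonate-using enzymes and 1 to 5 hypoxia genes, where the lowest counts came without replicate 3. Slc4a4, not called (log2 fold change 0.56, adjusted p = 0.106), passed without replicate 1 (0.86, adjusted p = 0.00394) and without the filter (0.57, adjusted p = 0.0112), and was at 0.25 (adjusted p = 0.353) without replicate 2. With the longest transcript as length, the mean TPM of Car5b was 32.3 against 22.6 and that of Car12 38.8 against 24.5. The causes were not tested. Depth limits Car11, Car5a, Car14, Epas1 and the other listed genes with too few counts to be tested.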

Other observations

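Of Car7 and Car15, the family genes outside the list that passed the low-count filter, Car15 had the larger fold change, lower in the acLDL-high library of each pair with log2 differences of -1.23, -0.59 and -1.04. It rests on 150 counts in all, and its adjusted p was 0.108 from edgeR and between 0.0544 and 1 under the alternatives that gave one.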
